A study of Homo sapiens with 8 samples.

Results

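Repressors of translation that gather in processing bodies (P-bodies) were followed through their own mRNAs. Members were chosen by gene symbol from a fixed set: DDX6, LSM14A, LSM14B, EIF4ENIF1, EIF4E2, GIGYF1, GIGYF2, CPEB4 and PUM2. All 9 were found among the 59414 genes of the count table, and all 9 were listed in each editing table, among 11969 (sort, A-to-I), 11777 (sort, C-to-U), 10643 (knockdown, A-to-I) and 10833 (knockdown, C-to-U) genes. Every value below is a measurement of the mRNA of a gene, not of its protein.

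The samples were 8 RNA-seq libraries of HEK293T, an established human embryonic kidney line, titled PB-TRIBE-STAMP and thus all carrying the RNA editors. The TRIBE editor turns adenosine into inosine (A-to-I) and the STAMP editor turns cytidine into uridine (C-to-U). An editing score is the share of the reads of a gene counted as edited. There were 2 libraries in each group: P-bodies isolated by sorting (50 ng of RNA as input), cytosol (100 ng), cells treated with siEDC4, an siRNA against EDC4 (500 ng), and cells treated with siNC, the control siRNA (500 ng). No library lacking the editors was included, so the score in their absence was not measured here. In the sort, input amount and fraction cannot be told apart.

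P-bodies are cytoplasmic granules in which mRNAs that are not being translated are kept with decapping and repression factors. DDX6, an RNA helicase, binds LSM14A, LSM14B and EIF4ENIF1, and loss of DDX6, LSM14A or EIF4ENIF1 disperses P-bodies in human cells. EIF4E2 holds the mRNA cap without starting translation and works with GIGYF1 and GIGYF2, while PUM2 and CPEB4 choose their targets by short motifs in 3′ untranslated regions (3′UTRs).

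Depth varied most in the editing tables of the sort, where both sorted libraries had fewer reads than both cytosol libraries. Counts summed to 21186963 to 23716926 per library in the sort, and the reads of listed genes to 12048147 to 15947999 in the editing tables of the sort and 5697417 to 6294767 in those of the knockdown. All 6 genes listed as reported for HEK293T were above 1 CPM (counts scaled to a common total per library) in every library of the sort, and of 6 blood cell genes at most 1 was (3 of 5 fibroblast and 4 of 4 epithelial tumour line genes were). The siNC libraries differed in reads by close to sampling noise (chi-square 1.02 per degree of freedom in each table), against 3.46 for siEDC4 in the A-to-I table, and were counted as 1 sample in the knockdown tests. Their edited reads differed by more, at 1.30 per degree of freedom in the A-to-I table and 1.31 in the C-to-U table, against 1.49 and 1.54 for siEDC4. Batch in the labels equals the replicate number, so the 2 siNC libraries carry different batch labels. The labels do not state whether the 2 libraries of a group were grown apart, and every p-value therefore measures spread between libraries, which may be technical. EDC4, the target of the siRNA, was at 40.3 and 32.7 CPM in siEDC4 libraries, against 109.8 and 106.1 CPM in siNC libraries (log2 change -1.56 ± 0.14, SE, adjusted p = 2.6e-25, edgeR, with siNC as 1 sample so that the spread comes from the siEDC4 libraries; adjusted p = 1.4e-05 with the siNC libraries separate).

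The binding motifs of PUM2 and CPEB4 also occur in the members' own 3′UTRs, and these sites are shown because those proteins and the mRNAs that carry the sites belong to the same group. The Pumilio response element, TGTANATA, and the cytoplasmic polyadenylation element, TTTTAT or TTTTAAT, were searched on the mRNA strand of the principal transcript of each gene (GENCODE v29, hg38), with overlapping matches counted. Windows of 30 bases are printed 5′ to 3′ as DNA, with 1 match in capitals. LSM14A site 3 lies past the end of the gene as the deposited count table gives it, and the other sites lie within their genes.
PUM2 site 1, chr2:20251142-20251171, minus strand: gtttatagagaTGTATATAgaattatagtc
PUM2 site 2, chr2:20250882-20250911, minus strand: tacagaaatatTGTATATActtacatatgt
DDX6 site 1, chr11:118751371-118751400, minus strand: ttcatccgcacTGTAAATAcatgtatttaa
DDX6 site 2, chr11:118751094-118751123, minus strand: ttgtataacttTGTAAATAagttttttttc
LSM14A site 1, chr19:34228333-34228362, plus strand: cagtatacaaaTGTAAATAatcacagatga
LSM14A site 2, chr19:34229095-34229124, plus strand: agaaagaaaacTGTAAATActagttctact
LSM14A site 3, chr19:34229480-34229509, plus strand: cccctcctgtgTGTAAATAaaatacttctg
CPEB4, the polyadenylation element nearest the 3′ end with a full window, chr5:173961556-173961585, plus strand: aattctttttatTTTTATcttttgttttta

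PUM2 thus carries 2 copies of the motif that its own product binds, as does the DDX6 mRNA, and LSM14A carries 3. The Pumilio motif was also found 2 times in EIF4ENIF1, 1 time in GIGYF1 and 1 time in GIGYF2. It was not found in the 3′UTRs searched of LSM14B, EIF4E2 and CPEB4. Among 19211 protein-coding genes, 23.15% had at least 1 such match. Among genes whose 3′UTR is within 20% of the length of the member's, the share was 43.2% for PUM2, 54.73% for DDX6, 34.76% for LSM14A, 10.48% for EIF4ENIF1, 35.62% for GIGYF1 and 29.21% for GIGYF2. For the members with no match it was 61.13% for CPEB4, 23.79% for LSM14B and 4.27% for EIF4E2. CPEB4 held 25 polyadenylation elements in a 3′UTR of 5839 bases, where 782 genes of like length had a median of 8. PUM2 held 9, and DDX6 and LSM14A 8 each, against medians of 4, 6 and 3 at like length. GIGYF1 held 2 and GIGYF2 1, against medians of 3 and 2, LSM14B 1 (median 1), EIF4E2 1 (median 0) and EIF4ENIF1 0 (median 0). At least 1 such element was found in 56.93% of all genes. A match is a description of the sequence, not evidence of binding.

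The sort asks which mRNAs are more or less abundant in isolated P-bodies than in cytosol. Abundance of the motif-binding repressors changed most: CPEB4 was 5.11-fold and PUM2 3.05-fold higher in sorted P-bodies. EIF4ENIF1, GIGYF2, LSM14A and DDX6 were also higher, by 1.27-fold to 1.51-fold, LSM14B was lower at 0.752 of its cytosolic level, and EIF4E2 and GIGYF1 did not pass the test. In total, 6 members were called higher and 1 lower (edgeR quasi-likelihood test, adjusted p under 0.05), where 28.8% of the 18745 genes tested were called higher and 29.0% lower. No member's groups overlapped: 7 were higher and 2 lower in both sorted libraries, which held for 37.3% and 43.3% of all genes. The median log2 change was 0.38 over the members and -0.03 over all genes tested. In bulk libraries of fractions such as these, a shift in some cells and a shift in all cells cannot be told apart. A CPM is a share of a library, not an amount of mRNA.

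DDX6 (ENSG00000110367.13, chromosome 11, 118747763 to 118791164, minus strand, hg38) had 1992 and 1916 CPM in sorted P-bodies, against 1575 and 1584 CPM in cytosol. The groups did not overlap, and the log2 change was 0.34 ± 0.11 (SE, adjusted p = 0.025, edgeR). DDX6 lost the call with the replicate number as a block (adjusted p = 0.084), under library-size scaling (0.14, adjusted p = 0.29) and without either cytosol library (adjusted p = 0.31 and 0.30), and with the trend on gene length removed its log2 change was -0.05 (adjusted p = 0.76).

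LSM14A and LSM14B encode paralogous RNA-binding partners of DDX6, and they went in opposite directions. LSM14A (ENSG00000257103.9, chromosome 19, 34172504 to 34229288, plus strand) had 1416 and 1371 CPM in sorted P-bodies, against 1127 and 1068 CPM in cytosol (log2 change 0.38 ± 0.11, adjusted p = 0.016). LSM14B (ENSG00000149657.20, chromosome 20, 62122461 to 62135374, plus strand) had 38.0 and 42.6 CPM in sorted P-bodies, against 56.2 and 53.7 CPM in cytosol (log2 change -0.41 ± 0.10, adjusted p = 0.0074). Neither pair of groups overlapped. LSM14B counts came to 2.69% and 3.10% of LSM14A counts in sorted P-bodies, against 4.98% and 5.03% in cytosol. An exact two-sided permutation test of 2 against 2 libraries gave p = 0.333 for this ratio, the smallest it can give. LSM14A was not called under library-size scaling (0.18, adjusted p = 0.20) or without cytosol 1 or cytosol 2 (adjusted p = 0.19 and 0.31), and LSM14B was not called without cytosol 1 (adjusted p = 0.095).

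EIF4ENIF1 encodes the transporter of the cap-binding protein EIF4E, which also links EIF4E to DDX6. EIF4ENIF1 (ENSG00000184708.18, chromosome 22, 31436977 to 31496108, minus strand) had 67.6 and 67.8 CPM in sorted P-bodies, against 44.4 and 47.8 CPM in cytosol, with no overlap (log2 change 0.59 ± 0.10, adjusted p = 6.6e-04). It kept the call in every alternative run.

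In the complex of the cap-binding repressor EIF4E2, GIGYF2 passed the test, and differences between its members were not shown by a test. EIF4E2 (ENSG00000135930.14, chromosome 2, 232550674 to 232583644, plus strand) had 54.1 and 53.2 CPM in sorted P-bodies, against 56.9 and 61.6 CPM in cytosol, a log2 change of -0.11 ± 0.10 that did not pass (adjusted p = 0.39). GIGYF2 (ENSG00000204120.16, chromosome 2, 232697299 to 232860605, plus strand) had 252.2 and 294.8 CPM in sorted P-bodies, against 190.9 and 185.3 CPM in cytosol (log2 change 0.58 ± 0.12, adjusted p = 0.0022). Its paralogue GIGYF1 (ENSG00000146830.11, chromosome 7, 100679507 to 100694250, minus strand) had 83.2 and 75.5 CPM in sorted P-bodies, against 72.7 and 65.3 CPM in cytosol. GIGYF1 did not pass (log2 change 0.24 ± 0.11, adjusted p = 0.088), though its groups did not overlap and it passed without sorted P-bodies 1 (adjusted p = 0.048) or sorted P-bodies 2 (adjusted p = 1.4e-04). GIGYF2 lost the call without cytosol 2 (adjusted p = 0.063) and with the length trend removed (0.07, adjusted p = 0.57), while EIF4E2 was called lower with that trend removed (-0.27, adjusted p = 0.035) and under library-size scaling (-0.31, adjusted p = 0.028).

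CPEB4, which controls poly(A) tail length and translation through the polyadenylation element, had 217.2 and 273.3 CPM in sorted P-bodies, against 49.7 and 48.8 CPM in cytosol. Every sorted library was far above every cytosol library, and the log2 change was 2.35 ± 0.14 (adjusted p = 3.0e-06, edgeR), above that of 98.6% of all genes tested. PUM2, a Pumilio protein that represses and destabilises its targets, had 400.3 and 477.6 CPM in sorted P-bodies, against 149.2 and 146.0 CPM in cytosol (log2 change 1.61 ± 0.12, adjusted p = 7.5e-06). The groups were again apart, and 94.0% of genes had a smaller log2 change. With the trend on gene length removed the log2 changes were 1.98 ± 0.11 for CPEB4 and 1.42 ± 0.11 for PUM2, and both kept the call in every alternative run. CPEB4 (ENSG00000113742.14) lies on chromosome 5 at 173888349 to 173961980, plus strand, and PUM2 (ENSG00000055917.16) on chromosome 2 at 20248691 to 20352234, minus strand.

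**Figure D1:**
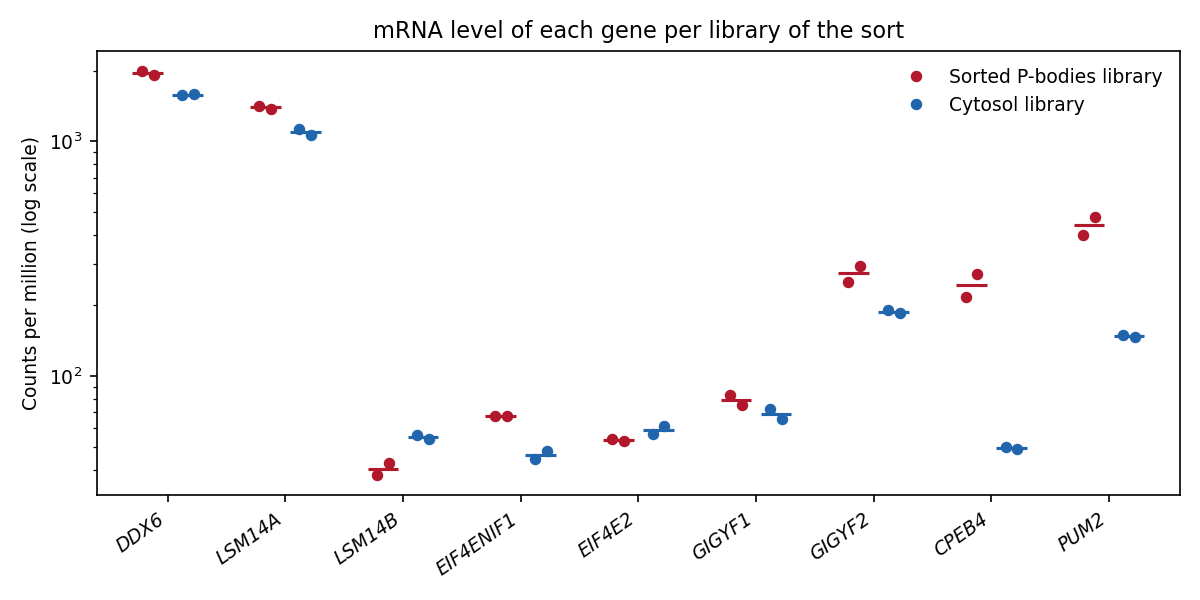
Library-scaled counts (CPM) on a log axis for each gene, with sorted P-bodies left of cytosol; points are libraries and bars are means of 2. CPEB4 (217.2 and 273.3 CPM in sorted P-bodies, against 49.7 and 48.8 CPM in cytosol) and PUM2 show the widest gaps, and LSM14B and EIF4E2 are lower in sorted P-bodies.

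The scaling of the libraries shifted every gene. Under library-size scaling the median log2 change of all genes was -0.23, against -0.03 with TMM (trimmed mean) scaling, and the calls over all genes were 22.7% higher and 36.9% lower; with the length trend removed they were 26.4% higher and 32.1% lower. Under each of those settings 4 members were called higher and 2 lower. Every member but DDX6 kept the sign of its log2 change under these scalings, while DDX6 was below 0 with the length trend removed. With that trend removed GIGYF2 (0.07) and GIGYF1 (0.0436) came near 0, as did GIGYF1 under library-size scaling (0.0365).

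**Figure D2:**
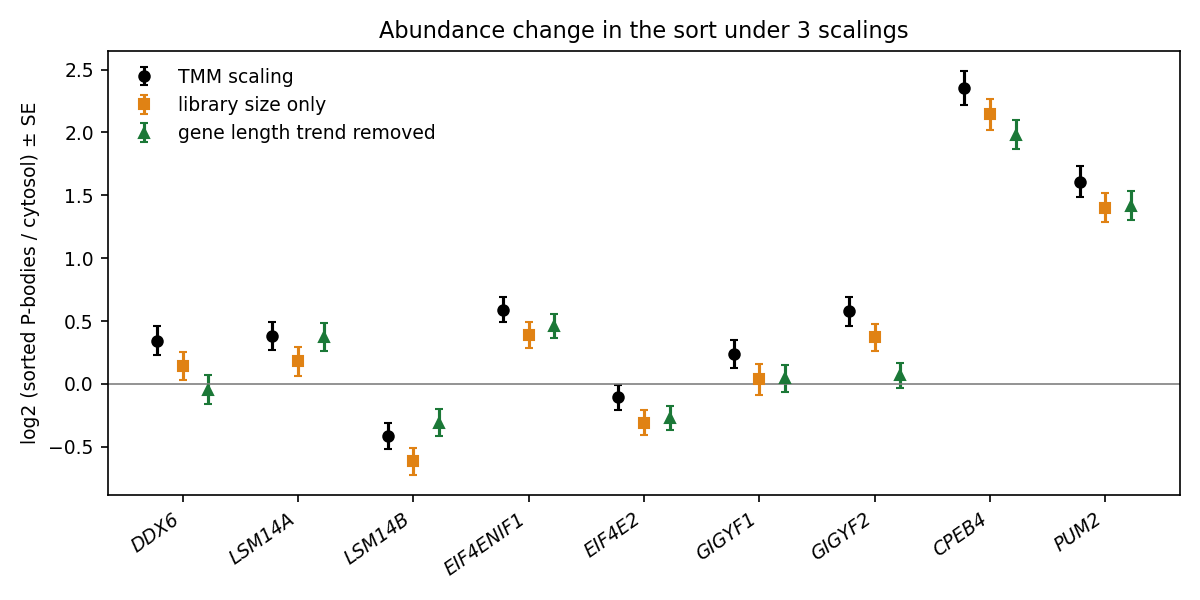
log2 ratio of sorted P-bodies to cytosol for each gene under 3 scalings; points are edgeR estimates and bars are their SE. CPEB4 stays between 1.98 and 2.35 and LSM14B below 0, whereas DDX6 and GIGYF2 come to -0.05 and 0.07 with the gene length trend removed.

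Per kilobase of the gene length listed in the count table, LSM14A and DDX6 stood far above the other members in each group. LSM14A averaged 308.3 ± 7.01 CPM per kb in sorted P-bodies, against 242.8 ± 9.22 in cytosol, and DDX6 averaged 170.5 ± 4.65 in sorted P-bodies, against 137.8 ± 0.541 in cytosol (SD, n = 2 each). Their mean ranks among the 18745 genes were 37 and 89 in sorted P-bodies, against 90 and 162 in cytosol. Whether the editor constructs carry LSM14A or DDX6 coding sequence is not given in the sources used here, and gene-level reads do not separate a construct from the gene in the genome.

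The order of the remaining levels differed between fractions. In sorted P-bodies PUM2 (62.98 ± 7.85 CPM per kb) came next, then CPEB4 (23.5 ± 3.80), GIGYF2 (17.7 ± 1.95), LSM14B (11.9 ± 0.951), GIGYF1 (11.2 ± 0.772), EIF4ENIF1 (11.1 ± 0.0159) and EIF4E2 (8.18 ± 0.0993). LSM14B overlapped GIGYF1, and GIGYF1 overlapped EIF4ENIF1, so the order of these 3 is not set by the data. In cytosol CPEB4 was the lowest member at 4.72 ± 0.0654 CPM per kb, below EIF4ENIF1 (7.55 ± 0.397) and LSM14B (16.3 ± 0.513), and PUM2 was at 21.2 ± 0.331. The neighbours GIGYF1 and EIF4E2 overlapped there.

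The editing tables of the sort ask whether mRNA in isolated P-bodies carries more marks of the editors than cytosolic mRNA. It did for every member: 9 of 9 had higher A-to-I scores and 9 of 9 had higher C-to-U scores in sorted P-bodies, with no overlap between the groups. Most genes did the same, 82.3% in A-to-I and 80.0% in C-to-U editing, while 4.69% and 4.01% had both sorted libraries lower. A-to-I editing was called higher for 73.5% of 11303 genes tested and lower for 1.08%, and C-to-U editing was called higher for 68.0% of 10613 and lower for 0.292% (edgeR on edited and unedited reads, adjusted p under 0.05). The gene of median score had 7.19% and 7.41% A-to-I editing in sorted P-bodies, against 2.90% and 2.77% in cytosol. For C-to-U editing it had 2.76% and 3.12% in sorted P-bodies, against 0.633% and 0.595% in cytosol. The count table also lists rows named for editing enzymes. APOBEC had 555.2 and 521.6 CPM in sorted P-bodies, against 503.8 and 516.2 CPM in cytosol. ADARB1 had 554.4 and 514.7 CPM in sorted P-bodies, against 627.6 and 635.9 CPM in cytosol. Whether the ADARB1 row counts an editor construct, the gene in the genome or both is not given in the sources used here. The part of editor levels in the scores was not tested.

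Each member was therefore also set against that shift, in a second test with each library centred on its median gene. After centring, 16.9% of genes were called higher and 12.4% lower for A-to-I editing, and 13.8% higher and 3.66% lower for C-to-U editing. The median centred log2 value over all genes was 0.06 for A-to-I and 0.22 for C-to-U editing, so a small centred value above 0 is not above the typical gene. By this test 3 members exceeded the shift in A-to-I editing (LSM14B, EIF4E2 and GIGYF1), 3 fell short of it (CPEB4, GIGYF2 and PUM2) and 3 were not called. In C-to-U editing 2 exceeded it (LSM14A and DDX6) and the other 7 were not called.

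For DDX6 the A-to-I score was 12.1% and 13.5% in sorted P-bodies, against 5.49% and 5.56% in cytosol. Its log2 odds ratio of 1.33 ± 0.10 (adjusted p = 1.0e-08) lay close to the median of all genes, 1.46, and the centred value was -0.08 ± 0.08 (adjusted p = 0.49). In C-to-U editing DDX6 had 4.83% and 6.38% in sorted P-bodies, against 0.721% and 0.456% in cytosol. That log2 odds ratio was 3.33 ± 0.35 (adjusted p = 6.9e-06), and it remained above the shift of all genes when centred (1.17 ± 0.26, adjusted p = 0.013).

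LSM14A resembled its partner in this. It had 9.87% and 10.02% A-to-I editing in sorted P-bodies, against 4.03% and 3.34% in cytosol (log2 odds ratio 1.53 ± 0.11, centred 0.12 ± 0.09, adjusted p = 0.34 when centred). Its C-to-U score was 3.52% and 4.05% in sorted P-bodies, against 0.120% and 0.342% in cytosol. The log2 odds ratio of 4.12 ± 0.42 (adjusted p = 5.6e-06) was above that of 87.9% of genes, and the centred value was 1.94 ± 0.37 (adjusted p = 0.0059). It was 3.51 without cytosol 1 and 5.01 without cytosol 2. The cytosolic libraries held 17 and 46 edited reads of 14127 and 13468, so the low side of the ratio rests on few edited reads.

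LSM14B had the highest A-to-I log2 odds ratio of the members with all libraries, though EIF4E2 and EIF4ENIF1 gained more percentage points (10.6 and 10.4, against 8.41 for LSM14B). Without cytosol 1, GIGYF1 (2.78) was above LSM14B (2.57). LSM14B scored 10.6% and 9.41% in sorted P-bodies, against 1.37% and 1.84% in cytosol, a log2 odds ratio of 2.78 ± 0.29 (adjusted p = 2.7e-07) and 1.38 ± 0.30 when centred (adjusted p = 0.0018). Pooled, the scores were 10.05% (exact 95% interval 8.35 to 11.97%) in sorted P-bodies and 1.59% (1.11 to 2.22%) in cytosol; such intervals cover counting error only. Its C-to-U score was 3.27% and 2.92% in sorted P-bodies, against 0.547% and 0.194% in cytosol, and that log2 odds ratio of 3.05 ± 0.55 (adjusted p = 3.7e-04) did not pass when centred (0.94 ± 0.59, adjusted p = 0.30). The cytosolic C-to-U scores of LSM14B rest on 6 and 2 edited reads, and its log2 odds ratio was 3.96 without cytosol 1.

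EIF4ENIF1 had 15.8% and 14.7% A-to-I editing in sorted P-bodies, against 5.30% and 4.43% in cytosol, and 2.35% and 4.21% C-to-U editing in sorted P-bodies, against 0.644% and 0.594% in cytosol. Both gains passed (log2 odds ratios 1.82 ± 0.20 and 2.39 ± 0.49), and neither passed when centred (0.41 and 0.26, adjusted p = 0.13 and 0.77). The cytosolic C-to-U scores of EIF4ENIF1 rest on 6 edited reads in each library.

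In the EIF4E2 complex the A-to-I estimates of the cap-binding subunit and GIGYF1 were within 1 SE of each other, and that of GIGYF2 was smaller. EIF4E2 scored 13.6% and 13.5% in sorted P-bodies, against 2.93% and 2.96% in cytosol (log2 odds ratio 2.36 ± 0.22, centred 0.96 ± 0.22, adjusted p = 0.0032 when centred). GIGYF1 scored 8.45% and 9.85% in sorted P-bodies, against 2.45% and 1.42% in cytosol (2.32 ± 0.25, centred 0.92 ± 0.25, adjusted p = 0.0091 when centred). GIGYF2 scored 12.5% and 12.9% in sorted P-bodies, against 7.09% and 6.68% in cytosol (0.98 ± 0.12, centred -0.43 ± 0.11, adjusted p = 0.0060 when centred). The cytosolic score thus separates GIGYF2, above 92.0% of genes in each cytosol library, from GIGYF1, above 42.0% and 24.3%.

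In C-to-U editing GIGYF1 had the lowest score of the members in sorted P-bodies and overlapped LSM14A in cytosol, with 0.982% and 1.01% in sorted P-bodies, against 0.0708% and 0.380% in cytosol. Its cytosolic scores rest on 1 and 5 edited reads (pooled, exact 95% interval 0.0808 to 0.478%), and its call (log2 odds ratio 2.14 ± 0.69, adjusted p = 0.015) was lost without sorted P-bodies 1, sorted P-bodies 2 or cytosol 1 (adjusted p = 0.12, 0.11 and 0.10). The log2 odds ratio was 1.37 without cytosol 1 and 3.66 without cytosol 2. EIF4E2 had 3.44% and 3.12% in sorted P-bodies, against 0.460% and 0.524% in cytosol, the latter on 5 and 6 edited reads. GIGYF2 had 2.37% and 2.68% in sorted P-bodies, against 0.561% and 0.436% in cytosol. Their log2 odds ratios, 2.76 ± 0.45 and 2.36 ± 0.33, were near the median of all genes, 2.33, and did not pass when centred (adjusted p = 0.40 and 0.68).

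Among the members, PUM2 had the highest A-to-I score in sorted P-bodies and CPEB4 the highest in cytosol, and CPEB4 led in C-to-U editing in both. PUM2 had 16.96% and 16.9% A-to-I editing in sorted P-bodies, against 9.03% and 8.62% in cytosol, and CPEB4 had 14.5% and 15.3% in sorted P-bodies, against 10.7% and 10.2% in cytosol. In cytosol CPEB4 was above 98.9% of genes in each library and PUM2 above 97.2%. On the log2 odds scale their A-to-I gains were among the smallest of the members. The log2 odds ratio was 0.58 ± 0.15 for CPEB4 (adjusted p = 0.0020, centred -0.82 ± 0.14, adjusted p = 2.2e-04 when centred) and 1.07 ± 0.12 for PUM2 (adjusted p = 5.0e-07, centred -0.34 ± 0.10, adjusted p = 0.019 when centred). In percentage points CPEB4 gained the least of the members (4.455). PUM2 gained 8.084 points, between DDX6 (7.3) and LSM14B (8.412).

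C-to-U editing of CPEB4 reached 17.3% and 15.99% in sorted P-bodies, against 6.21% and 6.76% in cytosol, a log2 odds ratio of 1.52 ± 0.24 (adjusted p = 1.2e-04, centred -0.63 ± 0.22, adjusted p = 0.071 when centred). It was above 97.4% and 95.4% of genes in the sorted libraries, and above 98.9% and 99.5% in the cytosol libraries. PUM2 had 10.8% and 9.26% in sorted P-bodies, against 2.59% and 1.21% in cytosol (2.55 ± 0.34, adjusted p = 3.4e-05, 3.18 without cytosol 1, centred 0.38 ± 0.30, adjusted p = 0.42 when centred). CPEB4 was the only member whose C-to-U score exceeded its A-to-I score in both sorted libraries, at ratios of 1.05 to 1.19, which held for 10.7% of 11699 genes.

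**Figure D3:**
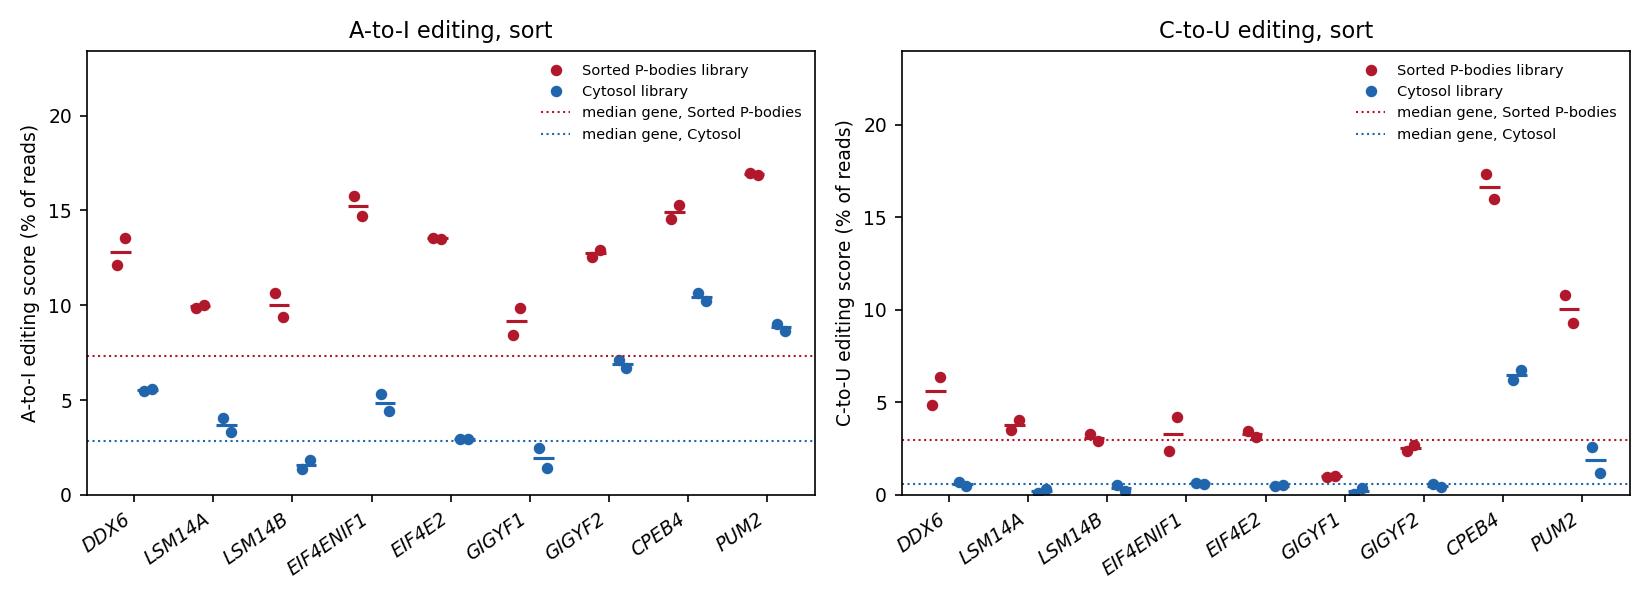
A-to-I (left) and C-to-U (right) editing scores in percent of reads, with sorted P-bodies left of cytosol for each gene; points are libraries, bars are means of 2 and dotted lines are the mean of the 2 library medians over genes tested. Every member is higher in sorted P-bodies, and CPEB4 (17.3% and 15.99% in sorted P-bodies, against 6.21% and 6.76% in cytosol) and PUM2 lead in C-to-U editing.

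All 9 members were above the median gene of both sorted libraries in A-to-I editing, and 7 were above it in both cytosol libraries; GIGYF1 and LSM14B were not. In C-to-U editing 4 members (CPEB4, PUM2, DDX6 and LSM14A) were above the median gene of both sorted libraries and 2 (CPEB4 and PUM2) above it in both cytosol libraries. Neighbours in A-to-I score that overlapped in sorted P-bodies were EIF4ENIF1 with CPEB4, EIF4E2 with DDX6, DDX6 with GIGYF2, and LSM14B with LSM14A. In cytosol only GIGYF1 and LSM14B did. In C-to-U score, neighbours from EIF4ENIF1 down overlapped one another in cytosol.

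**Figure D4:**
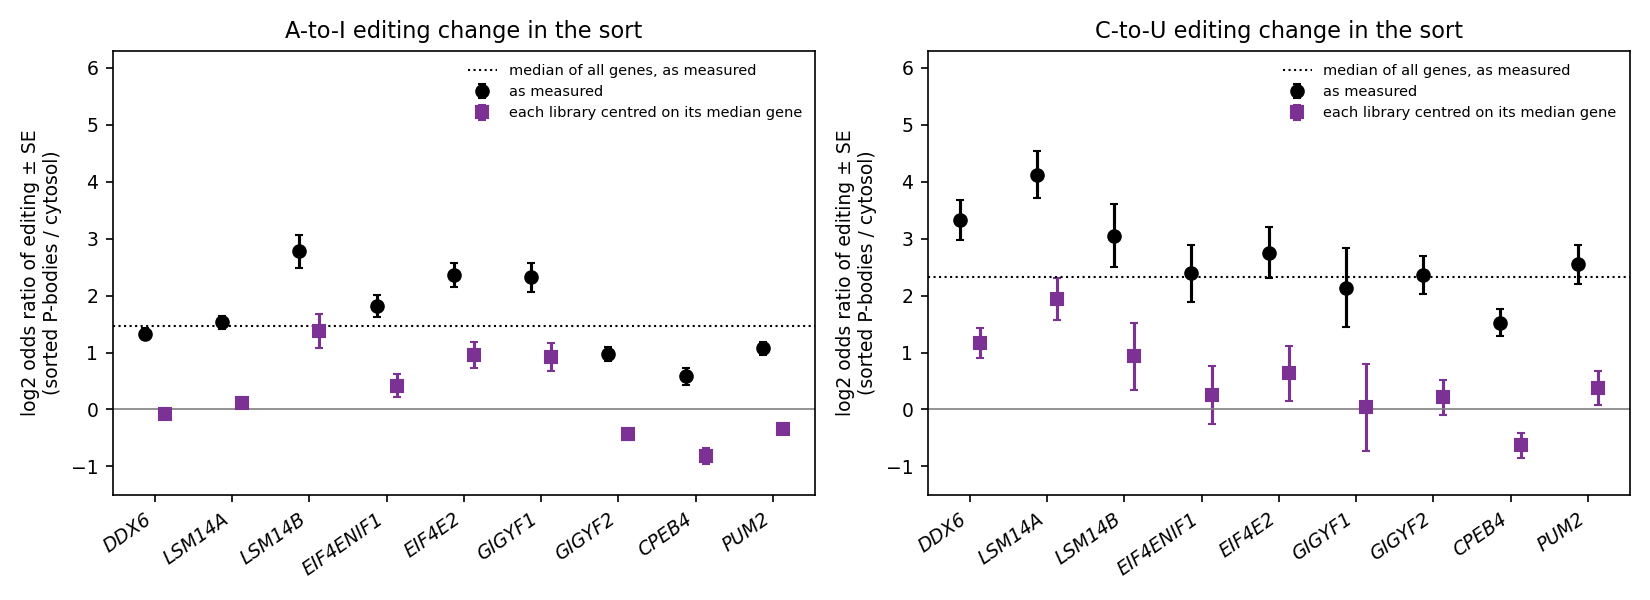
log2 odds ratio of editing, sorted P-bodies over cytosol, for A-to-I (left) and C-to-U (right); circles are as measured, squares after centring each library on its median gene, bars are SE and the dotted line is the median of all genes as measured (1.46 and 2.33). After centring, LSM14B, EIF4E2 and GIGYF1 lie above 0 and CPEB4, GIGYF2 and PUM2 below 0 in A-to-I editing, and LSM14A and DDX6 lie above 0 in C-to-U editing.

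Over the 9 members, the log2 abundance change and the A-to-I log2 odds ratio ran inversely, from CPEB4 (2.35 and 0.58) to LSM14B (-0.41 and 2.78), with Spearman's rho = -0.85 and Pearson's r = -0.84. The order of the members differs in percentage points of A-to-I editing. CPEB4 gained 4.455, PUM2 8.084 and LSM14B 8.412 points, and no correlation was calculated on that scale. Over all 11303 genes tested in both, rho was 0.156. For C-to-U editing rho was -0.467 over the members and -0.047 over 10613 genes. These are descriptions across genes that share libraries, and genes are not independent replicates.

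Knockdown of EDC4, a scaffold of the decapping complex that sits in P-bodies, asks whether the mRNAs or their editing depend on it. No member passed in reads: 0 of 9 were called with edgeR, where 0.564% of 10642 genes were (60 genes), and 2 members and 786 genes had an unadjusted p under 0.05. DESeq2 called 0 members and 3 genes. Among the members, 4 had both siEDC4 libraries above both siNC libraries (LSM14A, DDX6, EIF4E2 and CPEB4), 4 had both below (LSM14B, GIGYF1, GIGYF2 and PUM2) and EIF4ENIF1 overlapped. Over all genes 24.5% were above and 23.9% below in this way.

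LSM14A showed the largest difference in reads, at 723.6 and 752.9 CPM in siEDC4 libraries, against 582.0 and 597.3 CPM in siNC libraries. Its log2 change of 0.33 ± 0.11 did not pass (adjusted p = 0.19, edgeR). With the siNC libraries as separate samples it passed (adjusted p = 0.0099; 1.45% of genes were called), and so it did with the replicate number as a block (adjusted p = 4.7e-05), under which 521 genes were called. DDX6 was at 1452 and 1474 CPM in siEDC4 libraries, against 1332 and 1336 CPM in siNC libraries (log2 change 0.13 ± 0.10, adjusted p = 0.89).

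CPEB4 was at 95.4 and 83.9 CPM in siEDC4 libraries, against 73.7 and 76.8 CPM in siNC libraries (0.26 ± 0.13, adjusted p = 0.68). PUM2 was at 198.8 and 161.3 CPM in siEDC4 libraries, against 199.7 and 208.1 CPM in siNC libraries (-0.18 ± 0.11, adjusted p = 0.82). Neither difference passed, and the higher siEDC4 library of PUM2 lay just under the lower siNC library. LSM14B had 76.6 and 72.7 CPM in siEDC4 libraries, against 95.98 and 80.5 CPM in siNC libraries (-0.24 ± 0.13, adjusted p = 0.71). GIGYF1, with an unadjusted p of 0.0497, had 179.9 and 149.9 CPM in siEDC4 libraries, against 194.5 and 189.9 CPM in siNC libraries (-0.22 ± 0.11, adjusted p = 0.68). For GIGYF2, EIF4E2 and EIF4ENIF1 the log2 changes were -0.12, 0.16 and 0.06. LSM14B reads came to 10.6% and 9.65% of LSM14A reads in siEDC4 libraries, against 16.5% and 13.5% in siNC libraries, with no overlap.

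Editing after the knockdown was not called for any member or any gene by edgeR, in either table. At an unadjusted p under 0.05 there were 0 members and 502 of 9271 genes (5.41%) for A-to-I editing, and 0 members and 407 of 9745 genes (4.18%) for C-to-U editing. limma on log2 scores also called 0 genes, while the replicate block gave 26 and 4 genes, none a member. The median log2 odds ratio of all genes was 0.30 for A-to-I and 0.19 for C-to-U editing.

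In A-to-I editing 5 members had both siEDC4 libraries above both siNC libraries, where 30.8% of genes did, and 2 (LSM14B and GIGYF2) had both below, where 8.99% did. LSM14A scored 4.14% and 4.71% in siEDC4 libraries, against 3.20% and 2.83% in siNC libraries (log2 odds ratio 0.57 ± 0.27). PUM2 scored 4.22% and 4.46% in siEDC4 libraries, against 3.06% and 2.34% in siNC libraries (0.70 ± 0.30). These libraries did not overlap, but neither gene passed (adjusted p = 0.82 for each). EIF4ENIF1 scored 3.54% and 4.30% in siEDC4 libraries, against 1.89% and 2.11% in siNC libraries (0.98 ± 0.52), on 24 edited reads in siEDC4 and 12 in siNC. GIGYF1 scored 1.01% and 1.87% in siEDC4 libraries, against 0.825% and 0.459% in siNC libraries (1.10 ± 0.54). CPEB4 scored 3.97% and 5.86% in siEDC4 libraries, against 3.92% and 2.95% in siNC libraries (0.51 ± 0.41). The SE of each was large beside its estimate. DDX6 (0.15), EIF4E2 (0.24), GIGYF2 (-0.19) and LSM14B (-0.30, on 4 and 6 edited reads) were nearer 0 on the log2 scale.

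In C-to-U editing 4 members had both siEDC4 libraries above both siNC libraries, where 26.2% of genes did, and 2 (LSM14B and CPEB4) had both below, where 10.9% did. CPEB4 scored 5.54% and 3.77% in siEDC4 libraries, against 6.51% and 6.32% in siNC libraries (log2 odds ratio -0.47 ± 0.38). LSM14B scored 1.92% and 1.45% in siEDC4 libraries, against 2.00% and 3.40% in siNC libraries (-0.63 ± 0.49). GIGYF1 scored 1.192% and 1.183% in siEDC4 libraries, against 0.744% and 0.551% in siNC libraries (0.87 ± 0.50). The adjusted p was 0.99 for all 3. The remaining estimates ran from 0.03 for DDX6 to 0.73 for EIF4ENIF1. Edited reads per member and group ran from 7 to 409, and no difference passed.

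**Figure D5:**
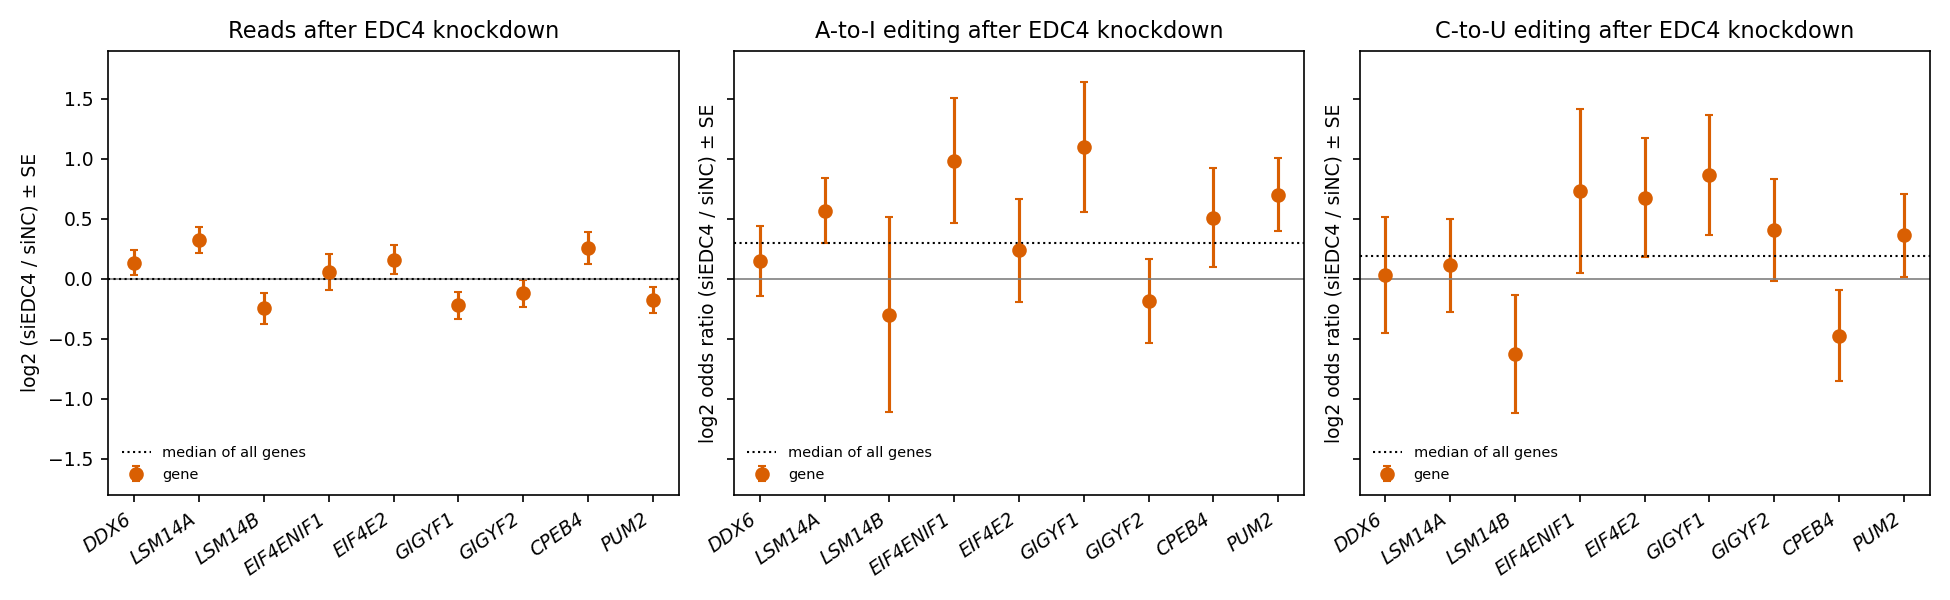
log2 change after EDC4 knockdown, siEDC4 over siNC, for reads (left), A-to-I editing (middle) and C-to-U editing (right); points are edgeR estimates, bars are SE and dotted lines are the median of all genes. No member passed the test in any panel, and reads of LSM14A (0.33) lie highest in the left panel.

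Levels in the knockdown tables put the members in nearly the same order in both groups. LSM14A (163.3 ± 4.59 CPM per kb in siEDC4 libraries and 130.4 ± 2.39 in siNC libraries) and DDX6 (127.6 ± 1.39 in siEDC4 libraries and 116.4 ± 0.236 in siNC libraries) came first. CPEB4 was at 8.58 ± 0.777 CPM per kb in siEDC4 libraries, where it overlapped EIF4ENIF1, and was lowest in siNC libraries at 7.20 ± 0.213. PUM2, GIGYF1 and LSM14B came in that order in both groups, with PUM2 overlapping GIGYF1 in siEDC4 libraries only and GIGYF1 overlapping LSM14B in both.

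Set beside the knockdown tables, which the authors made separately, every member had a higher A-to-I score in both cytosol libraries than in both siNC libraries, as did 72.6% of 10578 genes. In C-to-U editing 7 of 9 were lower in both cytosol libraries, as were 63.1% of 10654 genes. The C-to-U score exceeded the A-to-I score in both libraries for LSM14B in siEDC4 (44.7% of 10476 genes) and for LSM14A, LSM14B and CPEB4 in siNC (47.0%).

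The 34 other repression and decapping genes listed for comparison went both ways in abundance. Of 32 tested, 14 were called higher in sorted P-bodies and 10 lower (median log2 change 0.22), where 28.8% and 29.0% of all genes tested were. The largest rises were XRN1, the cytoplasmic exonuclease that degrades decapped mRNA (304.6 and 457.8 CPM in sorted P-bodies, against 84.8 and 84.3 CPM in cytosol, log2 change 2.21 ± 0.18, adjusted p = 9.8e-06), and CPEB2, a paralogue of CPEB4 (79.8 and 93.2 CPM in sorted P-bodies, against 25.4 and 23.4 CPM in cytosol, 1.86 ± 0.12, adjusted p = 3.7e-06). The largest falls were EIF4EBP1, an inhibitor of EIF4E (22.4 and 19.7 CPM in sorted P-bodies, against 76.3 and 77.99 CPM in cytosol, -1.83 ± 0.11, adjusted p = 3.0e-06), and YBX1, an abundant mRNA-packaging protein (436.0 and 406.3 CPM in sorted P-bodies, against 1270 and 1328 CPM in cytosol, -1.59 ± 0.11, adjusted p = 5.9e-06).

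In A-to-I editing 27 of 30 of these genes were called higher in sorted P-bodies and 0 lower, and 8 higher and 4 lower when centred. Over all genes tested 73.5% were called higher and 1.08% lower, and 16.9% and 12.4% when centred. STAU1, which binds double-stranded RNA, had 13.4% and 14.99% in sorted P-bodies, against 3.51% and 2.32% in cytosol (log2 odds ratio 2.46 ± 0.18). EIF4E, the cap-binding protein that starts translation, exceeded the shift when centred, as did STAU1 (0.75 ± 0.25 and 1.05 ± 0.16, adjusted p = 0.027 and 6.2e-05). ZFP36L1, a binder of AU-rich elements, had 8.79% and 10.8% in sorted P-bodies, against 2.51% and 2.00% in cytosol (2.23 ± 0.33). The 4 called lower when centred included EDC4 (4.48% and 3.33% in sorted P-bodies, against 3.31% and 2.83% in cytosol, centred -1.01 ± 0.25, adjusted p = 0.0053) and CPEB2 (19.1% and 15.5% in sorted P-bodies, against 13.3% and 12.5% in cytosol, centred -0.90 ± 0.21, adjusted p = 0.0026). In C-to-U editing 24 of 30 were called higher and 0 lower, and 9 higher and 0 lower when centred. The shares over all genes tested were 68.0% and 0.292%, and 13.8% and 3.66% when centred. In YBX1, 129 of 10079 reads were edited in sorted P-bodies, against 3 of 28940 in cytosol. These shares stood in a ratio of 123.5 (exact 95% counting interval 41.3 to 606.5). CNOT1, the scaffold of the CCR4-NOT deadenylase, had 3.06% and 3.44% in sorted P-bodies, against 0.205% and 0.0692% in cytosol (4.64 ± 0.43). After EDC4 knockdown the only gene of this list to pass in reads was EDC4 itself (31 tested), and none of 28 passed in either editing table (edgeR), with 2 and 1 at an unadjusted p under 0.05.

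Other genes were ranked by how near their 8 group scores (4 groups, both editors) lay to those of a member. The measure was the root mean square difference of log2(score in percent + 0.1) among 9115 genes with at least 200 reads in each group sum. Such a ranking always gives a nearest gene. For DDX6 the nearest were CASP8 (0.24), BAZ1A (0.28) and ZNF143 (0.29). For the other members the nearest gene was TIMM10B for LSM14A (0.29), RBMX for LSM14B (0.37), GSE1 for EIF4ENIF1 (0.24), ARID3B for EIF4E2 (0.22), RUFY1 for GIGYF1 (0.32), SMCR8 for GIGYF2 (0.14), SOCS5 for CPEB4 (0.22) and TET3 for PUM2 (0.23). SOCS5 pooled 20.3% A-to-I and 15.9% C-to-U editing in sorted P-bodies, against 11.2% and 6.63% in cytosol. CPEB4 itself pooled 14.9% A-to-I and 16.6% C-to-U editing in sorted P-bodies, against 10.45% and 6.48% in cytosol.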

How the data were processed

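The members and gene lists were chosen with earlier results of these data known. Per the labels, TRIzol RNA went into a YEASEN library kit. STAR 2.7.9a, featureCounts 2.0.1 and hg38 stand in the submitters' processing notes, beside cutadapt 1.18 and FastQC 0.11.9. Not given in the sources used here were the annotation, strand setting, multi-mapping rule and calling of edited sites, so overlapping and paralogous genes are uncertain. The authors deposited raw counts per gene for the sort. The reads columns of the editing tables were entered as estimated counts, since 3 broken lines per deposited table hold values that are not whole. Those lines were left out, and all reads and edited reads that remained and were tested were whole numbers. The deposited editing score is a fraction and equalled edited reads over reads, to within 5e-08. Depth and the spread between libraries both enter the error of a value.

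edgeR 4.0.16 under R 4.3.3 (quasi-likelihood, TMM, filterByExpr) was run on abundance over all genes, with Benjamini-Hochberg adjustment at 0.05. For the knockdown, whose libraries have no column in the count table, the reads of the A-to-I table were used. Editing was tested with edgeR on edited and unedited reads, with 1 coefficient per library, among genes edited in 2 or more libraries. The centred test offsets each library by its median log odds. For the length trend, each library's deviation from the gene mean was smoothed on log2 gene length and used as an offset. The SE is the estimate over the square root of F, and CPM use TMM library sizes. Alternatives used DESeq2 1.42.0 and limma 3.58.1 (pseudocounts of 1.20% and 0.234% in the sort and 0.447% and 0.577% in the knockdown, A-to-I first). Scripts were tested on simulated data. Named genes were the 9 members, EDC4, the 2 largest called rises and falls of a list of 34 repression and decapping genes, and the nearest genes by score. The labels give a batch that equals the replicate number, so numbers pair libraries across groups. Same-numbered libraries deviated together only weakly (r = 0.094 for sort counts, -0.030 for knockdown reads, -0.003 to 0.040 for editing).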

Additional observations from a re-analysis of the deposited data

How the results depend on the processing

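Called members numbered 7 in sort abundance and 4 to 8 with 1 library left out (4 without cytosol 1 or without cytosol 2). Calls over all genes moved in the same direction, with fewer without either cytosol library and more without either sorted library. Whether the number called changed to the same degree for the members as for all genes was not tested. With the trend on gene length removed the log2 change of DDX6 was -0.046. In knockdown reads 0 members were called, and 1 (LSM14A) with the replicate block or with separate siNC libraries; over all genes 60 were called, against 3 with DESeq2, 521 with the block, 154 with separate siNC libraries and 32 to 51 without siNC 1 or siNC 2 (32 without siNC 1). The block changed no other member's call than DDX6 in sort abundance and LSM14A in knockdown reads. Sort A-to-I editing was called for 8433 genes, 3311 when centred and 3229 when centred with the block, a pairing added after seeing the data. Sort C-to-U editing was called for 9 members and 7252 genes, for 2 members and 1853 genes when centred, and for 2 members and 2148 genes when centred with the block. Centring turned the sign of log2 values, given without and with the block: in A-to-I editing DDX6 (-0.080 and -0.079), GIGYF2 (-0.43 and -0.43), CPEB4 (-0.82 and -0.82) and PUM2 (-0.34 and -0.34), and in C-to-U editing CPEB4 (-0.63 and -0.63). In the knockdown, A-to-I editing was called for 26 genes with the block, and C-to-U editing for 4 with the block and 1 when centred. Values near 0 turned there, given when centred and when centred with separate siNC libraries (added after seeing the data): A-to-I DDX6 (-0.19 and -0.12) and EIF4E2 (-0.097 and -0.037), and C-to-U DDX6 (-0.20 and -0.10) and LSM14A (-0.12 and -0.048). With 1 library left out, A-to-I EIF4E2 ran from -0.0009 (without siNC 1) to 0.47, and C-to-U DDX6 from -0.37 to 0.41 (-0.23 without siNC 2). The cause of these changes was not tested.

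Without a siEDC4 library, and with siNC as 1 sample, the fits gave values and no test. Some scores rest on single-digit edited reads in each library, which limits them. In cytosol these were the C-to-U scores of LSM14B, GIGYF1, EIF4ENIF1 and EIF4E2. In the knockdown they were the A-to-I scores of LSM14B and the C-to-U scores of EIF4ENIF1 in both groups. The C-to-U scores of LSM14B in siEDC4, the A-to-I scores of EIF4ENIF1 in siNC and the C-to-U scores of GIGYF1 in siNC did so too.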
